A study of Manihot esculenta with 32 samples.

Results

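The genes described here are 8 cassava genes of sulfate transport and sulfur assimilation, found on 10 of the 32732 loci that carry a gene name. They were chosen by measured values, since each gene stands in the study's list of genes that differ between 2 embryogenic cultures, and each has an annotation that speaks of sulfate, sulfite or sulfur. The levels of these genes in those cultures are therefore given as a description, and tests are kept for comparisons between plant organs. Manes.02G156000 and Manes.18G070500 each lie on a pair of loci, and each locus was kept apart.

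Expression was measured in 32 RNA-seq libraries from 11 tissue/organ types of cultivar TME204. The embryogenic types were FEC, friable embryogenic callus, for which the labels give 7 weeks of culture, and OES, organized embryogenic structures, cultured for 4 weeks. The aerial types were leaf, midvein, petiole, stem, lateral bud and SAM (shoot apical meristem), and the subterranean types were RAM (root apical meristem), storage root and fibrous root, all from plants 3 months old. Storage root had 2 replicates and every other type had 3. FEC grew on Gresshoff and Doy medium with tyrosine and moxalactam, and OES on DKW/Juglans salts with MS vitamins, both with sucrose and the auxin picloram, so medium and tissue cannot be told apart. The methods state a shorter culture of FEC than the labels do. Each SAM and RAM replicate was a pool of 6 meristems whose RNA was isolated with another kit and fragmented with less enzyme, so preparation and tissue cannot be told apart except between RAM and SAM, which shared it.

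Plants take up sulfate through membrane carriers of the SULTR family, move it in the vascular tissue and store it in the vacuole. In plastids sulfate is activated, APS reductase makes sulfite, sulfite reductase turns sulfite into sulfide, and O-acetylserine (thiol) lyase builds sulfide into cysteine, from which glutathione is made. In Arabidopsis, shortage of sulfur raises transcripts of many of these genes and of the small LSU (response to low sulfur) proteins.

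The values are FPKM, fragment counts divided by transcript length and by library depth, given with the fragments behind them. Named loci held between 4175114 and 24123487 fragments per library (median 11656665), the lowest count being in petiole 2 and the highest in FEC 3. The labels were set against marker genes. A list of 18 photosystem and light harvesting loci was highest in leaf, WUSCHEL related homeobox 2 and 8 were highest in FEC and next in OES, and 6 sucrose and starch synthase loci were highest in storage root. Some markers did not follow their labels. WUSCHEL related homeobox 5, a marker of the root stem cell niche, reached 1.46 FPKM in RAM and 8.71 FPKM in storage root, and 5 KNOTTED-like loci summed to 251 FPKM in SAM and 268 FPKM in storage root. Root hair specific 10 and 19, taken as markers of fibrous root, summed to only 68.9 FPKM there. They summed to 192 FPKM in storage root, 124 FPKM in RAM and 109 FPKM in stem. Since tissue was sampled in bulk, fewer cells of a type and less RNA per cell cannot be told apart for any value below.

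Most of the 8 genes had far more transcript in FEC than in OES. Of the 10 loci, 7 were more than 4-fold higher in FEC, 2 were more than 4-fold lower, and 1 lay inside that limit. Over the 22927 loci that averaged 1 FPKM or more in FEC or OES, 6.23% were more than 4-fold higher in FEC with no overlap between libraries and 7% were lower, but nothing can be read from this, because that comparison chose the genes. The FEC and OES libraries did not overlap at any of the 10 loci.

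The most abundant transcript was that of Manes.01G002300, annotated as response to low sulfur 4 (chromosome 1, 477380 to 477862, AM560-2 v6.1, 1-based as are all positions here). Its levels were 496, 811 and 445 FPKM in FEC, against 13.5, 13.1 and 33.7 FPKM in OES, a ratio of means of 29.1. The second most abundant, Manes.06G163600, encodes sulfite reductase, which yields the sulfide for cysteine (chromosome 6, 26608048 to 26612609). It stood at 285, 519 and 239 FPKM in FEC, against 52.3, 50.9 and 38.1 FPKM in OES, a ratio of 7.38. FEC 2 was the highest library for both genes.

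Among the sulfate transporters of the 8 genes, those annotated as 1;3 carried most transcript in these cultures. SULTR1;3 of Arabidopsis is a high-affinity carrier of the phloem. The locus XLOC_005150 of Manes.02G156000 (chromosome 2, 11752785 to 11759941) was at 104, 133 and 95.9 FPKM in FEC, against 18.84, 19.62 and 16.95 FPKM in OES, a ratio of 6.02. The locus XLOC_036210 of Manes.18G070500 (chromosome 18, 6050518 to 6057052) was at 60.7, 89.5 and 57.1 FPKM in FEC, against 3.02, 2.69 and 3.70 FPKM in OES, a ratio of 22.0. Both were thus high in all FEC libraries.

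Manes.11G048000, annotated as sulfate transporter 3;4 (chromosome 11, 4346392 to 4350514), showed the largest ratio. A gene of this group in rice distributes phosphate in the nodes. Its levels were 11.3, 14.6 and 11.7 FPKM in FEC, against 0.297, 0.233 and 0.419 FPKM in OES, a ratio of 39.6. The OES value rested on 33 fragments over all libraries, and the ratio of fragments per depth was 40.4 (95% exact conditional interval 28.6 to 58.9, counting error only).

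Manes.10G037500, annotated as sulfate transporter 4.1 (chromosome 10, 3214434 to 3225371), ran the other way. In Arabidopsis, SULTR4;1 releases sulfate from the vacuole. The gene was at 0.127, 0.368 and 0.525 FPKM in FEC, against 1.56, 1.59 and 1.17 FPKM in OES, a ratio of 0.237. No FEC library held more than 18 fragments of it. Another gene annotated as sulfate transporter 4.1, Manes.07G110200, is not among the 8 genes and went with the majority. It had 60.5 to 96.4 FPKM in FEC, against 14.9 to 16.5 FPKM in OES, a ratio of 4.77. The study's list of that comparison holds it too, so this is a description.

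The remaining genes were weak in both cultures. Manes.03G062900, a member of the sulfite exporter TauE/SafE family, which is named after bacterial proteins (chromosome 3, 6708520 to 6713528), was at 3.74, 4.78 and 3.88 FPKM in FEC, against 0.212, 0.382 and 0.311 FPKM in OES, a ratio of 13.7. Manes.12G021300, annotated as sulfur E2 (chromosome 12, 1616217 to 1619752), was at 1.44, 1.91 and 1.22 FPKM in FEC, against 0.150, 0.255 and 0.330 FPKM in OES, a ratio of 6.22. In Arabidopsis a protein of that name activates the cysteine desulfurase that provides sulfur for iron-sulfur clusters. Of the loci past the 4-fold limit, the nearest to it was Manes.10G037500, with its ratio of 0.237. The locus that did not pass it was XLOC_003964 of Manes.02G156000, with a ratio of 3.49 and levels of 1.08, 2.01 and 1.39 FPKM in FEC, against 0.293, 0.406 and 0.584 FPKM in OES.

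**Figure D1:**
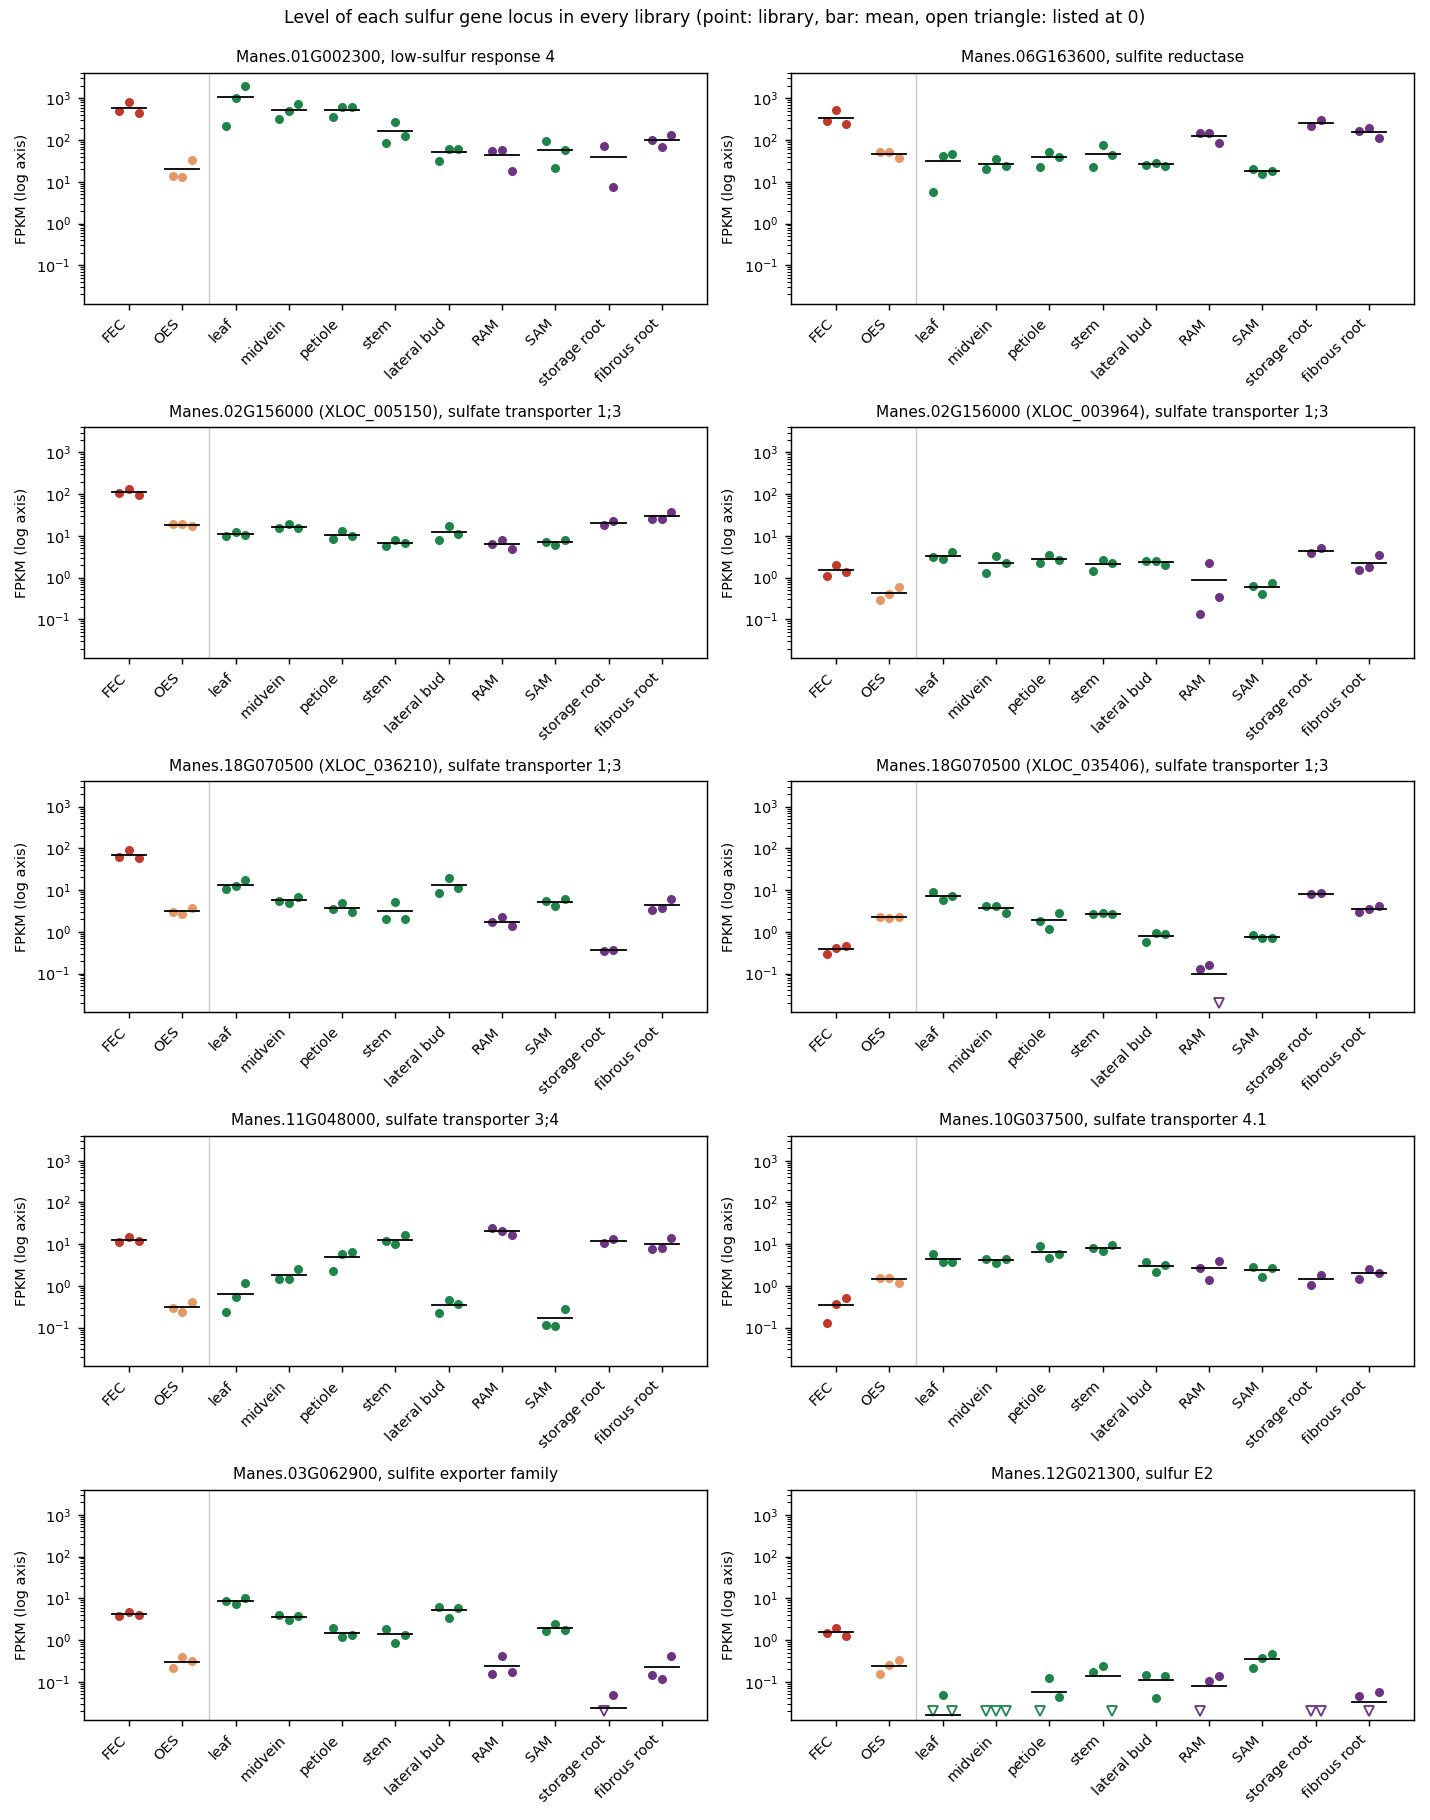
FPKM (log axis) of the 10 loci in the 32 libraries, by tissue/organ type, with FEC in red, OES in orange, aerial types in green and subterranean types in purple. Points are libraries, bars are means and open triangles are libraries listed at 0. Sulfite reductase lies between 85.2 and 299 FPKM in the subterranean libraries and between 5.82 and 75.2 FPKM in the aerial ones.

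The levels of Manes.02G156000 and Manes.18G070500 at each locus are uncertain, because their fragments were counted on a pair of loci with fractional counts. Whether the counting divided shared fragments between these loci was not tested. Fragment counts were fractional in 32 and 32 of the 32 libraries at the 2 loci of Manes.02G156000, and in 30 and 31 libraries at those of Manes.18G070500, whereas the counts of the other 6 genes were whole in every library. The lists give both loci of Manes.18G070500 the same position, and the library kit does not mark the strand. The locus XLOC_035406 of that gene went against its partner, at 0.289, 0.415 and 0.457 FPKM in FEC, against 2.24, 2.16 and 2.24 FPKM in OES, a ratio of 0.175.

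The division differed between organs. XLOC_035406 held 94.5% ± 0.281 (SD, n = 2) of the fragments of Manes.18G070500 in storage root and 46.2% ± 4.58 (SD, n = 3) in fibrous root. It held 0.440% ± 0.0633 in FEC, against 34.6% ± 2.89 in OES, and 3.28% ± 3.45 in RAM, against 11.3% ± 2.85 in SAM (SD, n = 3 each). Storage root was the only type in which this locus held most of the fragments in every library. XLOC_003964 held between 1.49% and 34.6% of the fragments of Manes.02G156000 over all libraries, and the smaller part in each. With both loci summed, FEC remained the highest type for both genes, at 113 ± 20.1 FPKM for Manes.02G156000 and 69.5 ± 17.8 FPKM for Manes.18G070500 (SD, n = 3).

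**Figure D2:**
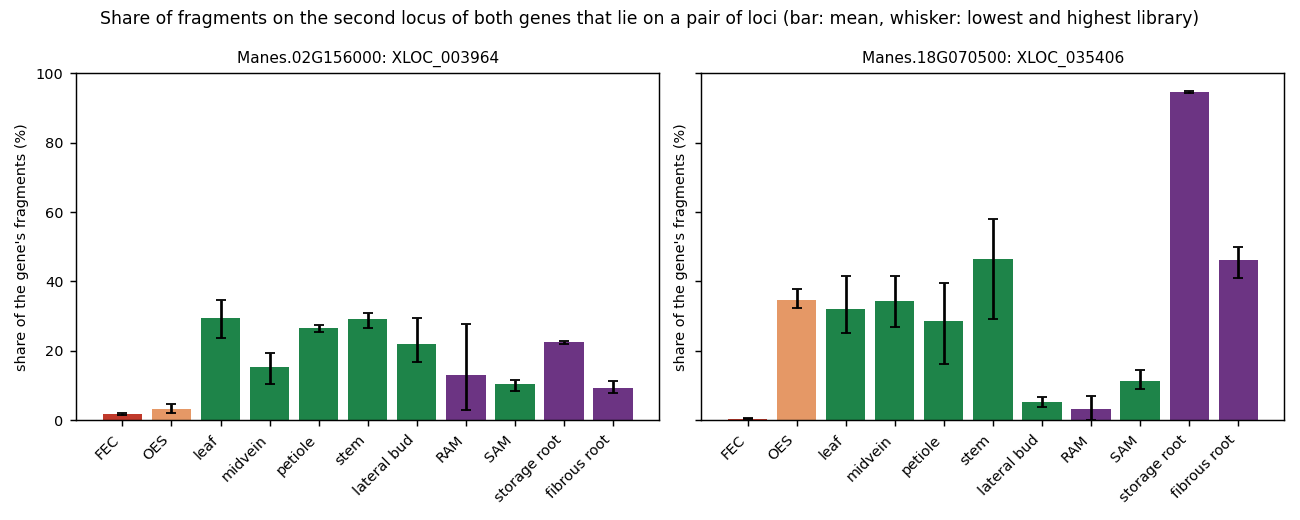
Share of the fragments of a gene, in percent, that was counted on its second locus, XLOC_003964 of Manes.02G156000 (left) and XLOC_035406 of Manes.18G070500 (right), by tissue/organ type. Bars are means over libraries and whiskers run from the lowest to the highest library. XLOC_035406 holds 94.5% in storage root and 0.440% in FEC.

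Across all 11 types the genes had different orders of expression. The orders are those of FPKM as deposited, which were not brought to a common sum. FPKM of named loci summed to between 721761 and 855416 in the FEC libraries and between 1595330 and 1665590 in the leaf libraries. Where a leaf mean lies above an FEC mean, the order thus also depends on this scale. FEC had the highest mean at 4 of the 10 loci, those of sulfite reductase, sulfur E2 and the main loci of both 1;3 transporters, and its libraries lay above every organ library at the last 3 of these. OES was lowest at 2 loci, Manes.01G002300 and XLOC_003964 of Manes.02G156000, and FEC was the lowest at Manes.10G037500.

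Manes.01G002300 had its highest means in leaf, FEC, petiole and midvein, with large differences between libraries. Means were 1079 ± 882 FPKM in leaf, 584 ± 199 in FEC, 537 ± 148 in petiole and 518 ± 206 in midvein (SD, n = 3), and these neighbours in the order overlapped. Stem followed at 163 ± 97.9 FPKM, apart from midvein. From stem down through fibrous root (100.4 ± 32.7 FPKM), SAM, lateral bud, RAM and storage root to OES, every pair of neighbours overlapped.

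Sulfite reductase had its highest means in FEC and the subterranean types. After FEC (348 ± 150 FPKM) came storage root at 223 and 299 FPKM, fibrous root at 163, 193 and 111 FPKM and RAM at 148, 144 and 85.2 FPKM. The aerial libraries ran from 5.82 to 75.2 FPKM, so the 8 subterranean libraries lay above all 18 aerial ones. OES, at 47.1 ± 7.81 FPKM, overlapped stem and petiole, its neighbours in the order.

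The main 1;3 locus of Manes.02G156000 was highest after FEC in fibrous root, at 24.8, 25.9 and 37.9 FPKM, and lowest in RAM, at 6.58, 7.93 and 4.96 FPKM. Fibrous root stood apart from storage root (18.3 and 22.6 FPKM), the next in order. XLOC_003964 of the same gene had its highest mean in storage root, at 3.90 and 5.03 FPKM, and overlapped its neighbour at every step of the order. For the main locus of Manes.18G070500, leaf (10.8, 12.4 and 17.3 FPKM) and lateral bud (8.29, 19.4 and 11.0 FPKM) followed FEC and overlapped each other, and storage root was lowest and apart, at 0.355 and 0.367 FPKM.

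Sulfate transporter 3;4 was found mainly in the 3 subterranean types, stem and FEC. RAM led at 23.9, 20.7 and 16.7 FPKM, apart from stem, which had 12.2, 9.90 and 16.2 FPKM. Stem, FEC, storage root and fibrous root overlapped along the order, and petiole and midvein followed. Leaf, lateral bud, OES and SAM were below 1.2 FPKM in every library.

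Sulfate transporter 4.1 of Manes.10G037500 had its highest mean in stem, at 8.29, 6.74 and 9.72 FPKM, and its means declined through petiole, leaf, midvein and lateral bud with overlap at each step. FEC alone stood apart, at the low end. In FPKM as deposited, the sulfite exporter family gene Manes.03G062900 was highest and apart in leaf, at 8.52, 7.50 and 9.98 FPKM. For this gene every aerial library (0.856 to 9.98 FPKM) lay above every subterranean one (0 to 0.411 FPKM). Sulfur E2 was below 0.47 FPKM in every organ library, and all midvein and storage root libraries were listed at 0 for it.

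Comparisons of organs, which did not choose the genes, used the quasi-likelihood test of edgeR, with p-values adjusted after Benjamini and Hochberg, on the fragment counts of all named loci. A locus was tested where its mean reached 1 FPKM in either organ, and called where the adjusted p was below 0.05 and the ratio of mean FPKM above 4. Standard errors (SE) belong to the log2 fold changes of that fit.

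In leaf over fibrous root, the study's comparison of a green organ with the absorbing root, 2 loci were higher in leaf and 2 were lower, of 9 tested. Over all 24723 loci tested, 14.5% were called higher in leaf and 15.2% lower. The median log2 fold change was 0.62 over the 9 loci and -0.11 over all loci tested. Manes.01G002300, Manes.03G062900 and sulfite reductase (Manes.06G163600) also stand in the study's own list of this comparison, so their calls repeat a known difference.

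Manes.01G002300 was higher in leaf, at 217, 1042 and 1979 FPKM, against 101, 67.6 and 133 FPKM in fibrous root. Every leaf library lay above every fibrous root library, with a log2 fold change of 3.47 (SE 0.70, edgeR, Benjamini-Hochberg adjusted p = 0.000112). Manes.03G062900 was also higher in leaf, at 8.52, 7.50 and 9.98 FPKM, against 0.144, 0.119 and 0.405 FPKM in fibrous root, and its log2 fold change was 5.27 (SE 0.45, edgeR, Benjamini-Hochberg adjusted p = 1.13e-10).

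Sulfite reductase was lower in leaf, at 5.82, 41.4 and 46.0 FPKM, against 163, 193 and 111 FPKM in fibrous root. The groups did not overlap, and the log2 fold change was -2.35 (SE 0.49, edgeR, Benjamini-Hochberg adjusted p = 0.00017). This call rested on leaf 1: without that library the log2 fold change was -1.85 with an adjusted p of 0.000452 (edgeR, Benjamini-Hochberg), and the ratio of means no longer passed 4. Sulfate transporter 3;4 was lower in leaf, at 0.238, 0.550 and 1.17 FPKM, against 7.58, 8.29 and 13.9 FPKM in fibrous root, with a log2 fold change of -4.42 (SE 0.48, edgeR, Benjamini-Hochberg adjusted p = 1.13e-08).

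The 1;3 transporters differed by less. The main locus of Manes.02G156000 was lower in leaf, at 10.1, 12.3 and 10.5 FPKM, against 24.8, 25.9 and 37.9 FPKM in fibrous root, with a log2 fold change of -1.43 (SE 0.23, edgeR, Benjamini-Hochberg adjusted p = 5.54e-06) and a ratio of 0.371, inside the 4-fold limit. The main locus of Manes.18G070500 had a log2 fold change of 1.53 in leaf over fibrous root (SE 0.32, edgeR, Benjamini-Hochberg adjusted p = 0.00017) and a ratio of 3.02. Sulfate transporter 4.1 of Manes.10G037500 had 5.86, 3.65 and 3.70 FPKM in leaf, against 1.45, 2.48 and 2.04 FPKM in fibrous root. Those libraries did not overlap in FPKM, but the log2 fold change in fragments was 0.62 (SE 0.34, edgeR, Benjamini-Hochberg adjusted p = 0.106).

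**Figure D3:**
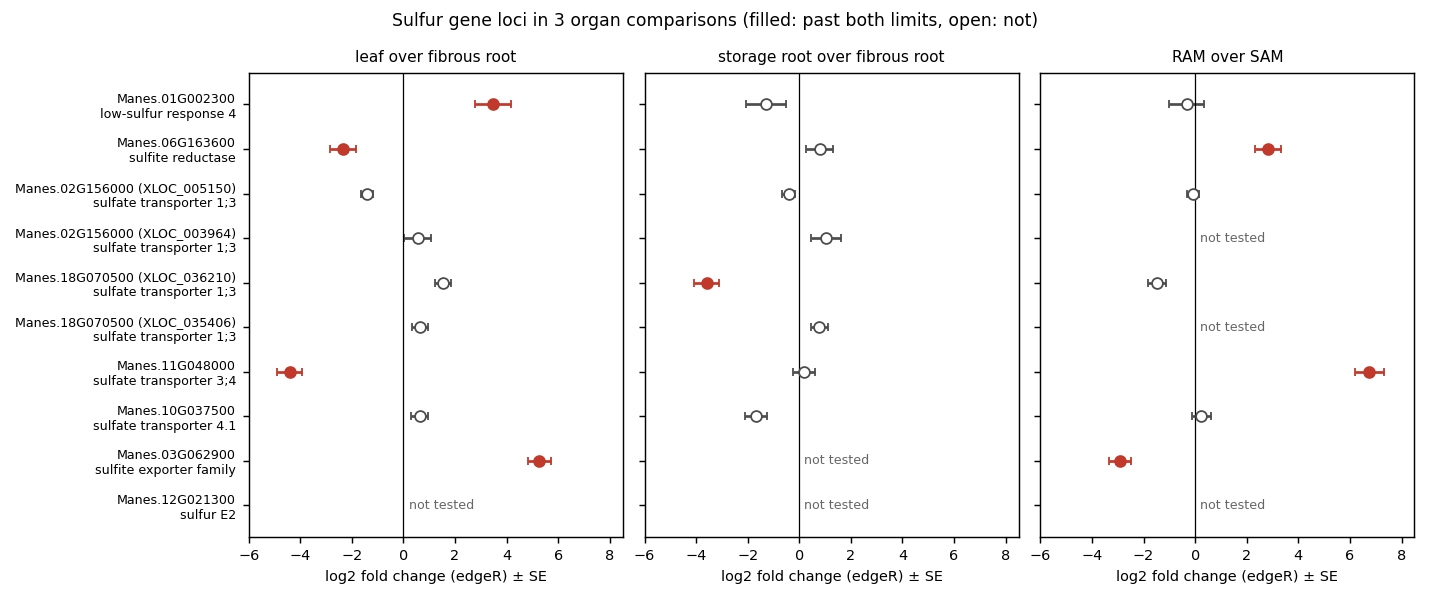
Log2 fold change of the 10 loci with its standard error, from edgeR's quasi-likelihood fit, in leaf over fibrous root, storage root over fibrous root and RAM over SAM. Filled red points passed both limits, open points did not, and loci under 1 FPKM in both organs are marked as not tested. Sulfate transporter 3;4 has -4.42 in leaf over fibrous root and 6.75 in RAM over SAM.

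Storage root over fibrous root compared the starch-storing root with the absorbing one. Of 8 loci tested, 0 were called higher in storage root by edgeR, DESeq2 or limma and 1 was called lower. At an unadjusted p under 0.05, 1 was higher and 2 were lower. Over all 23419 loci tested, 6.48% were higher in storage root and 16.4% lower, and the median log2 fold change was -0.12 over the 8 loci and -0.06 over all.

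The called locus was XLOC_036210 of Manes.18G070500, at 0.355 and 0.367 FPKM in storage root, against 3.36, 3.73 and 6.27 FPKM in fibrous root, with a log2 fold change of -3.59 (SE 0.49, edgeR, Benjamini-Hochberg adjusted p = 1.04e-06). Its partner XLOC_035406 was at 7.99 and 8.43 FPKM in storage root, against 2.92, 3.60 and 4.12 FPKM in fibrous root, with a log2 fold change of 0.78 (SE 0.34, edgeR, Benjamini-Hochberg adjusted p = 0.0515). With both loci summed, an alternative added after the data had been seen, the log2 fold change was -0.27 (SE 0.28, edgeR, Benjamini-Hochberg adjusted p = 0.413), so the gene as a whole showed no detectable difference and no locus was called.

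Sulfite reductase had 223 and 299 FPKM in storage root, against 163, 193 and 111 FPKM in fibrous root. The libraries did not overlap, but the log2 fold change of 0.78 did not pass the test (SE 0.51, edgeR, Benjamini-Hochberg adjusted p = 0.191). Manes.01G002300 had 73.0 and 7.70 FPKM in storage root, against 101, 67.6 and 133 FPKM in fibrous root, with a log2 fold change of -1.28 (SE 0.78, edgeR, Benjamini-Hochberg adjusted p = 0.159). Without storage root 1, a fit in which the lone storage root library was assumed to vary like the other groups, the change was -3.64 (edgeR, Benjamini-Hochberg adjusted p = 0.0107), and the locus was called.

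Sulfate transporter 4.1 held 9 and 12 fragments in storage root, against 36, 46 and 42 fragments in fibrous root. Its log2 fold change in fragments was -1.66 (SE 0.43, edgeR, Benjamini-Hochberg adjusted p = 0.00173), whereas the ratio of mean FPKM was 0.740, at 1.08 and 1.86 FPKM in storage root, against 1.45, 2.48 and 2.04 FPKM in fibrous root. Fragments and FPKM thus gave sizes that differ by more than 1.5 times, and the locus was not called. Manes.03G062900, with 0 and 1 fragments in storage root, against 4, 3 and 9 fragments in fibrous root, was not tested.

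RAM over SAM compared meristems of the root and the shoot that were prepared alike. Of 7 loci tested, 2 were higher in RAM and 1 was lower. Over all 23909 loci tested, 11.2% were higher in RAM and 10.7% lower, and the median log2 fold change was -0.09 over the 7 loci and 0.01 over all.

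Sulfate transporter 3;4 was at 23.9, 20.7 and 16.7 FPKM in RAM, against 0.115, 0.111 and 0.281 FPKM in SAM, with a log2 fold change of 6.75 (SE 0.57, edgeR, Benjamini-Hochberg adjusted p = 2.91e-10). SAM held 8 fragments in all, against 1158 in RAM, a ratio per depth of 90.1 (95% exact conditional interval 45.6 to 209, counting error only). Sulfite reductase was at 148, 144 and 85.2 FPKM in RAM, against 20.5, 15.3 and 18.3 FPKM in SAM, with a log2 fold change of 2.82 (SE 0.50, edgeR, Benjamini-Hochberg adjusted p = 3.12e-05). Both genes were thus higher in every RAM library than in any SAM library.

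Manes.03G062900 was lower in RAM, at 0.152, 0.411 and 0.169 FPKM, against 1.65, 2.40 and 1.71 FPKM in SAM, with a log2 fold change of -2.92 (SE 0.44, edgeR, Benjamini-Hochberg adjusted p = 4.1e-06). On the FPKM + 1 scale its ratio fell inside the 4-fold limit. The main locus of Manes.18G070500 had a log2 fold change of -1.48 (SE 0.35, edgeR, Benjamini-Hochberg adjusted p = 0.000665) and a ratio of 0.341. Manes.01G002300, at 53.8, 57.5 and 18.3 FPKM in RAM, against 92.9, 21.1 and 57.2 FPKM in SAM, overlapped between the meristems, with a log2 fold change of -0.33 (SE 0.68, edgeR, Benjamini-Hochberg adjusted p = 0.691).

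Over the 9 plant organ types together, 9 of the 10 loci were tested and all 9 differed, with a ratio of highest to lowest organ mean above 4. This was common: of 27158 loci tested, 66% were called. The ratio was 4.56 for the main locus of Manes.02G156000, 5.61 for Manes.10G037500, 14.5 for sulfite reductase, 26.7 for Manes.01G002300 and 121 for sulfate transporter 3;4. Sulfur E2 did not reach 1 FPKM in any organ.

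Other genes of the pathway were taken by annotation words from the study's lists of differing genes, which gave 12 genes on 14 loci. Only part of those lists was used, so these genes are not the whole pathway. In each comparison the loci that the list of that same comparison holds were left out of the counts, and the loci that remain were then by construction not in that list, or not in the stretch of it used here. The counts over all 14 loci are given beside them, but include loci that the comparison itself chose, so nothing is read from the difference. Loci kept in storage root over fibrous root include some from the list of leaf and fibrous root, such as Manes.01G016600. Both comparisons share the fibrous root libraries, so these counts are not free of that choice.

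In leaf over fibrous root, 4 of 8 tested loci were higher in leaf and 0 were lower by edgeR, DESeq2 or limma. At an unadjusted p under 0.05, with no limit on the ratio, 5 were higher and 2 lower. Over all loci tested, 14.5% were higher and 15.2% lower, and with the listed pathway loci kept, 8 were higher and 1 lower of 13. The 4 were APS reductase 1 (Manes.12G073800, main locus), both genes of APS reductase 3 and the A1 isoform of O-acetylserine (thiol) lyase. For APS reductase 1 the libraries overlapped, at 6.74 to 62.1 FPKM in leaf, against 2.95 to 15.9 FPKM in fibrous root. In storage root over fibrous root, 1 of 8 tested loci was higher, that of APS reductase 1, and 2 were lower, those of O-acetylserine (thiol) lyase A1 and glutathione-disulfide reductase, which keeps glutathione reduced. APS reductase 1 had 83.3 FPKM in storage root 1 and 10.1 FPKM in storage root 2. The latter lay within the fibrous root range of 2.95 to 15.9 FPKM, so the libraries overlapped. Both storage root libraries were listed at 0 for the lyase. Over all loci tested, 6.48% were higher and 16.4% lower. With the listed loci kept, 1 was higher and 6 were lower of 12, which adds cysteine synthase C1, sulfate transporters 3;1 (Manes.05G080400) and 3;4 (Manes.04G122800) and the sulfite exporter family gene Manes.08G018100 to the lower ones.

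In RAM over SAM, 2 of 12 tested loci were higher, cysteine synthase C1 and glutathione-disulfide reductase, and 2 were lower, APS reductase 3 of Manes.17G026200 and the sulfite exporter family gene Manes.01G134500. Over all loci tested, 11.2% were higher in RAM and 10.7% lower, and no list of this comparison was used. In FEC over OES, 7 of all 10 tested pathway loci were called higher and 0 lower, where edgeR called 6.16% of all loci higher and 6.89% lower. The genes of these 7 stand in the study's list of that comparison, so the count is a description. The 3 tested loci outside that list gave 0 calls by edgeR, DESeq2 or limma, which follows from how they were left, and all 3 had an unadjusted p under 0.05.

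The median log2 fold change depended on whether listed loci were kept. It was 1.76 without them and 2.30 with them in leaf over fibrous root, and 0.45 without them and -1.47 with them in storage root over fibrous root, where the sign turned. In FEC over OES it was 0.46 without them and 2.85 with them, and in RAM over SAM, where none was left out, it was -0.26. Listed loci were chosen by differing in the same comparison, so nothing is read from these shifts.

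APS reductase, whose step precedes sulfite reductase, showed another order of organs than sulfite reductase. The gene of APS reductase 1 also lies on a pair of loci, so its level at each is uncertain. Counts were fractional in 29 of the 32 libraries at its main locus and in 27 at the other. In fibrous root the main locus held 76.8% to 100% of the gene's fragments. The main locus of APS reductase 1 was at 525, 860 and 575 FPKM in FEC, against 9.62, 5.80 and 12.6 FPKM in OES, given as a description since the study's list of that comparison holds it. Among organs it was highest in SAM, at 238, 217 and 234 FPKM, and lowest in fibrous root, at 15.9, 2.95 and 3.19 FPKM, where sulfite reductase had 163, 193 and 111 FPKM. In RAM over SAM, where sulfite reductase was called higher, APS reductase 1 had 102, 213 and 93.5 FPKM in RAM, against those SAM levels, with a log2 fold change of -0.73 (SE 0.66, edgeR, Benjamini-Hochberg adjusted p = 0.34). APS reductase 3 of Manes.16G006000 was at 132, 239 and 800 FPKM in leaf, against 17.2, 12.6 and 32.2 FPKM in fibrous root, with a log2 fold change of 4.22 (SE 0.76, edgeR, Benjamini-Hochberg adjusted p = 2.92e-05).

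**Figure D4:**
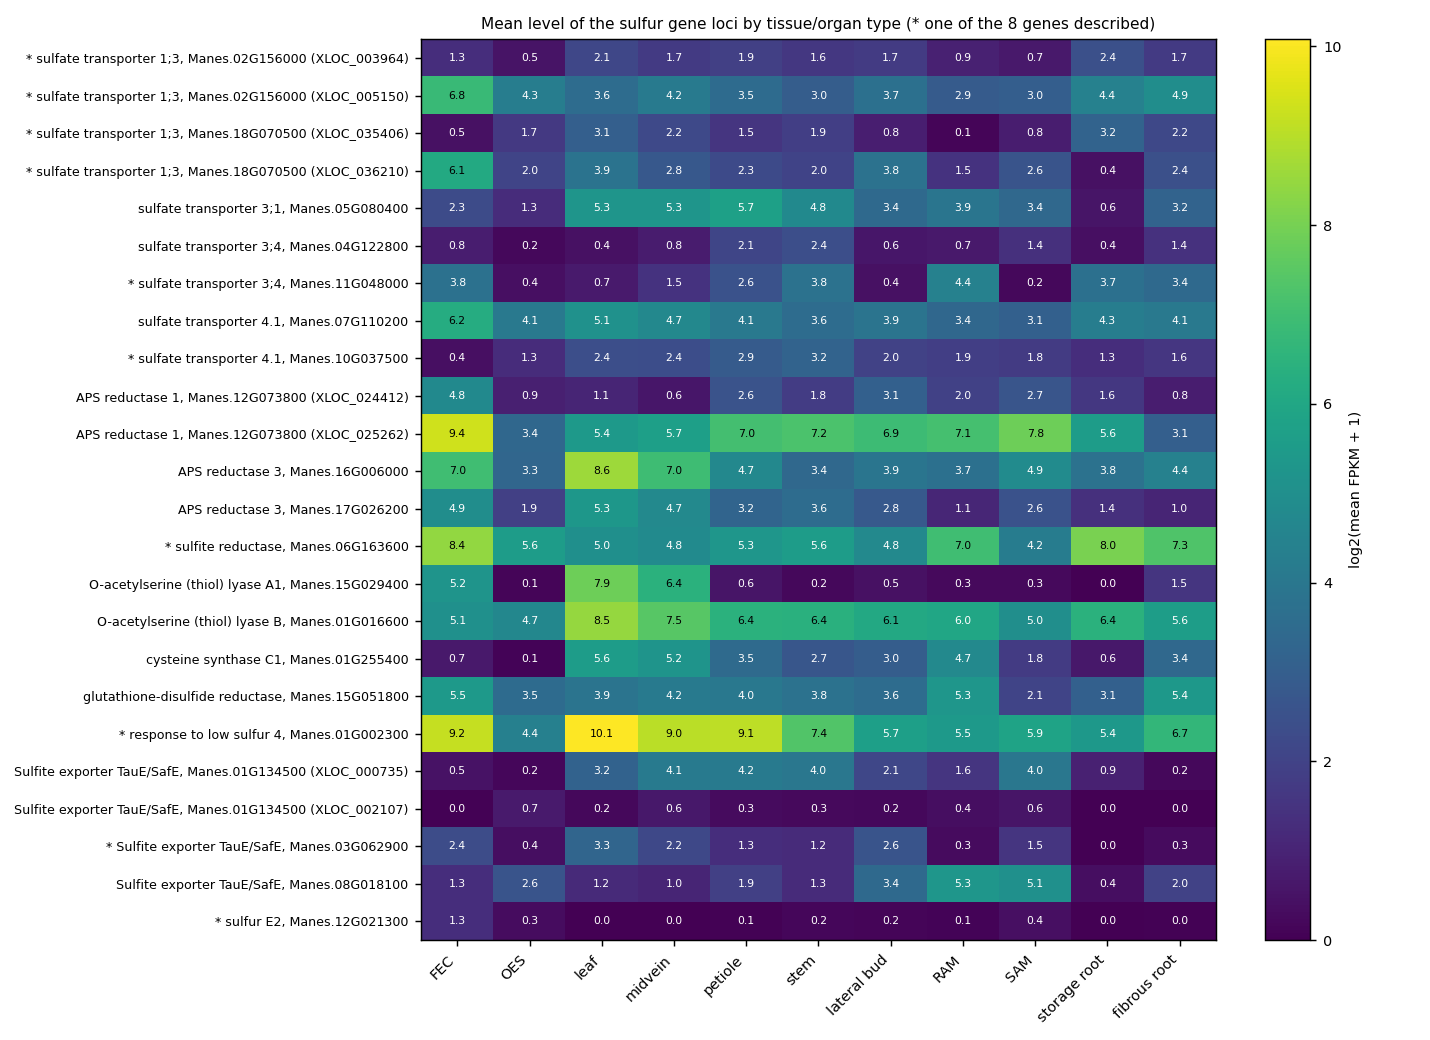
Mean level of the 24 sulfur loci in the 11 tissue/organ types, as log2(mean FPKM + 1), ordered by role from sulfate transport to cysteine and glutathione, with the loci of the 8 genes marked by asterisks. Manes.01G002300 has its highest mean in leaf (1079 FPKM), sulfite reductase in FEC (348 FPKM) and APS reductase 1 in FEC (654 FPKM).

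Libraries of the same type differed more at Manes.01G002300 than at a typical locus. The ratio of its highest to its lowest library ran from 1.73 in petiole to 9.49 in storage root, and it exceeded the median over all loci of at least 10 FPKM in all 11 types. Those medians lay between 1.21 in storage root and 1.53 in RAM. Sulfite reductase exceeded the median in 10 of 11 types, with ratios from 1.15 in lateral bud to 7.91 in leaf. The main 1;3 locus of Manes.02G156000 stayed between 1.16 and 2.22 in the 8 types where it reached 10 FPKM.

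In leaf the same library was lowest at many sulfur genes. Of the 13 sulfur loci of at least 10 FPKM in leaf, leaf 1 was lowest at 10 and highest at 2, cysteine synthase C1 (72.3, 27.0 and 41.6 FPKM in leaf 1, 2 and 3) and glutathione-disulfide reductase (16.4, 12.7 and 11.9 FPKM). Over all 13156 loci of that level, leaf 1 was lowest at 41.5% and highest at 31.1%. At the 5 genes with the largest ratios, named after their values were seen, leaf 1 had 217 FPKM of Manes.01G002300, 5.82 of sulfite reductase, 6.74 of APS reductase 1, 132 of APS reductase 3 (Manes.16G006000) and 70.5 of O-acetylserine (thiol) lyase A1, and leaf 3 was the highest at all 5 genes, by 5.22 to 9.22 times. The depth of leaf 1, 2 and 3 was 0.821, 1.31 and 0.722 times that of the median library, so the highest library was the shallowest. In FEC, replicate 2 was highest at all 13 sulfur loci of at least 10 FPKM, and replicate 3 was lowest at 10. Over all 12368 loci of that level in FEC, replicate 2 was highest at 48.0% and replicate 3 lowest at 35.9%. In stem, replicate 1 was lowest and replicate 2 highest at Manes.01G002300, sulfite reductase and APS reductase 1, by 3.13 to 3.24 times, though replicate 1 was lowest at only 5 of 10 sulfur loci there and highest at 3.

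Storage root showed the same for some genes and not for others. Storage root 1 had 73.0 FPKM of Manes.01G002300, 83.3 of APS reductase 1 and 22.2 of APS reductase 3, and storage root 2 had 7.70, 10.1 and 3.78 FPKM of these genes. Sulfite reductase was higher in storage root 2, by 1.34 times, and of 8 sulfur loci 4 were higher in each library. Storage root 1 also had the largest share of fragments on loci without a gene name, at 5.76%, against 2.68% in storage root 2, and its part in these values was not tested.

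**Figure D5:**
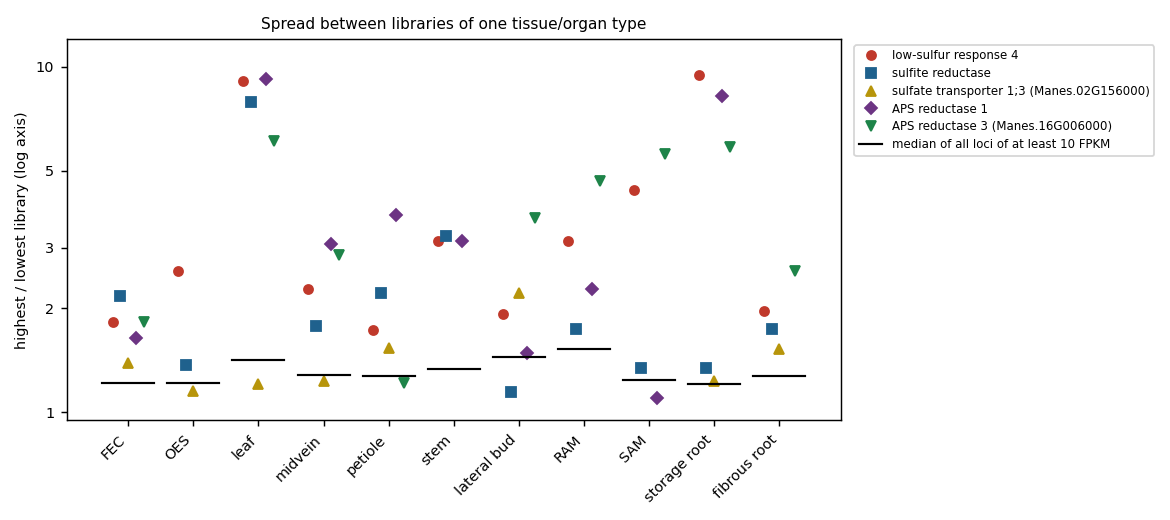
Ratio of the highest to the lowest library of a tissue/organ type (log axis) for 5 sulfur genes, each shown where its mean reached 10 FPKM, with the median over all loci of at least 10 FPKM as black bars. Manes.01G002300, the low-sulfur response gene, lies above the bar in all 11 types and reaches 9.49 in storage root and 9.12 in leaf.

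Profiles over the types were compared by Pearson's r of log2(mean FPKM + 1), a description over 11 points that share libraries and depth. Manes.01G002300 and sulfite reductase, both far higher in FEC, had r = -0.08 over 11 types and -0.44 over the 9 organs. Sulfite reductase and sulfate transporter 3;4 ran alike, with r = 0.79 and 0.83, as did Manes.03G062900 and the main locus of Manes.18G070500, with r = 0.76 and 0.89. Manes.03G062900 and sulfite reductase ran opposite over the organs, with r = -0.82. Both loci of Manes.18G070500 had r = -0.34 over the 11 types.

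Of 19196 loci with 1 gene and at least 10 FPKM in some type, the profile most like that of Manes.01G002300 was that of Manes.18G125000, an RNA-binding KH domain protein (r = 0.97). Manes.01G214600, a membrane-anchored ubiquitin-fold protein, and Manes.05G043200 followed (r = 0.91 and 0.90). The closest sulfur genes were the APS reductase 3 genes Manes.17G026200, at place 29, and Manes.16G006000, at place 48, and O-acetylserine (thiol) lyase A1, at place 87. For sulfite reductase the closest loci were those of Manes.16G021200 (r = 0.94), Manes.15G013400 and Manes.03G022900 (r = 0.92 each), and the closest sulfur gene was sulfate transporter 3;4 of Manes.11G048000, at place 131.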

How the data were processed

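The authors trimmed reads with Trimmomatic 0.32, aligned them with TopHat2 (2.0.10 in the submitters' processing notes, another version in the methods) to the AM560-2 v6.1 assembly, and merged and quantified gene models with Cufflinks and Cuffdiff 2.2.1. For each library they deposited FPKM per locus, an estimated count of fragments, of which 78.2% of the values above 0 are whole, and a scaled fragment signal. The deposited signal and the table repeating the FPKM of all libraries were not used here. Annotations and positions came from the study's lists of differing genes, whose comparison columns were not used.

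The members and lists were chosen with earlier results of these data known. Every locus carrying a member gene is described, and other pathway loci are counted. Those named are the APS reductases and some of the loci past both limits, and not every such locus is named in every comparison. Counts were rounded and fitted with edgeR 4.0.16 in R 4.3.3 (TMM, factors 0.720 to 1.15; 11 tissue-type means over 32 libraries; common biological coefficient of variation 0.264), with Benjamini-Hochberg adjustment over all loci of at least 1 FPKM, and limma 3.58.1 and DESeq2 1.42.0 were alternatives. SE was taken as the size of the log2 fold change over the root of the F statistic. The scripts were tested on simulated data. Python 3.11.15, pandas 2.3.3, numpy 2.4.6 and matplotlib 3.10.9 were used. Depth limits precision most in petiole and SAM.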

Additional observations from a re-analysis of the deposited data

How the results depend on the processing

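Of the member counts, those of RAM over SAM (3 called) stayed within 1.5 times under every alternative run. With a limit of 10 FPKM in place of 1, fewer loci were tested, and the counts were 2 in leaf over fibrous root, 0 in storage root over fibrous root and 5 over the 9 organs, against 4, 1 and 9. With no FPKM limit the count was 2 in storage root over fibrous root, and 3 for the other pathway loci in FEC over OES, against 0. With both loci of a gene summed, an alternative chosen after seeing the data, storage root over fibrous root had 0 calls, and the log2 fold change of XLOC_003964 of Manes.02G156000 became -1.07 in leaf and -0.19 in storage root over fibrous root, against 0.56 and 1.04, and that of XLOC_035406 of Manes.18G070500 became -0.27 in storage root, since the other locus holds the larger counts. Leaving out each library in turn gave 1 to 2 calls in storage root over fibrous root, 2 without storage root replicate 1, and 0 to 1 for the other pathway loci in FEC over OES, 1 without OES replicate 3. In RAM over SAM, Manes.01G002300 ran from -0.72 without SAM replicate 2 to 0.03 without RAM replicate 3 and 0.27 without SAM replicate 1, and the main locus of Manes.02G156000 from -0.26 without RAM replicate 2 to 0.065 without RAM replicate 3, none past the test. Rescaling FPKM to a common sum moved the median log2 ratio of all tested loci to -0.95, -0.65 and -0.40 in leaf over fibrous root, storage root over fibrous root and RAM over SAM, against -0.09, -0.03 and -0.06, and the main locus of Manes.02G156000 was then also called lower in leaf. It changed no other member call in these comparisons. As a replicate block, the replicate number changed no count of calls (4, 1, 3 and 9 for the members in leaf over fibrous root, storage root over fibrous root, RAM over SAM and the 9 organs). Same-numbered libraries deviated together with a median correlation of 0.038, so the numbers were not taken to pair the samples. A DESeq2 test over the 9 organs was not run.

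Loci of few fragments limit what can be seen: sulfur E2 had at most 6 fragments in any organ library, and sulfate transporter 3;4 had 2 to 4 in SAM.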
